A study of Oncorhynchus mykiss with 20 samples.

Results

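The gene described here is dusp1, which encodes a MAP kinase phosphatase, in the whole intestine of rainbow trout (Oncorhynchus mykiss) fry. It is 1 of the 25115 genes that could be paired with the transcripts of the files. It was found by its symbol in a RefSeq gene table of the species, and all of its reads come from 1 transcript of 2887 bases. The gene was selected on its measured CPM values, which differed between the strains at 20 days post hatch (dph) in these same libraries, so that difference is given as a description, without a test. All fish were females of 2 strains, a selected strain (Select, ARS-KO in the labels) and a commercial strain (Commercial), sampled at 20 and 65 dph. All 4 groups were raised in flowing spring water and ate the same kind of commercial starter feed, and no group received a drug or carried an engineered allele. Each group had 5 RNA sequencing libraries, 20 in all, and the labels call them biological replicates without saying whether a library pooled several fry. The p-values below therefore measure the spread between these libraries. The strains were held in separate raceways after hatching, so strain and raceway cannot be told apart.

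MAP kinases such as ERK, JNK and p38 carry growth, stress and inflammatory signals from the cell surface to the nucleus, and they work only while a threonine and a tyrosine in their activation loop are phosphorylated. DUSP1, also called MKP-1, is a nuclear phosphatase that removes both phosphates and so switches these kinases off. In mammals its transcript is short-lived, is made within minutes of MAP kinase activation as part of the immediate early response, and is also raised by glucocorticoid hormones, which use it to damp inflammation. DUSP1 thus sits at the end of a feedback loop, and its mRNA is read beside the kinases it acts on, the other genes of the immediate early response and the genes that answer to glucocorticoids.

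Libraries held between 7314588 and 13682738 expected counts. The 19 epithelial marker symbols looked for matched 11 genes, and all 11 were detected in every group. Among them was vil1, a protein of the brush border, at 1870 to 3340 CPM, a count corrected for library size with TMM factors. Summed over the list, epithelial markers ran from 16400 to 19700 CPM in Commercial and from 10500 to 18100 CPM in Select at 20 dph. At 65 dph they ran from 11500 to 16100 CPM in Commercial and from 11300 to 16500 CPM in Select. There were 3 libraries that stood apart from their groups. Select 20 dph replicate 1 held 22200 CPM of liver markers and 1440 CPM of skeletal muscle markers, against at most 46.4 CPM of muscle markers in any library of the other groups. Commercial 65 dph replicate 2 and Select 65 dph replicate 5 lay at the opposite end of the second principal component from the other Commercial libraries of that age. Other tissues also differed between the ages. At 20 dph the 2 exocrine pancreas markers matched summed to 84 to 2750 CPM in Commercial and 163 to 2620 CPM in Select. At 65 dph they reached at most 157 and 268 CPM. Liver markers ran from 301 to 1070 CPM in Commercial and from 128 CPM upward in Select at 20 dph. At 65 dph they reached at most 84.7 and 45.9 CPM. The part of these tissues in the age values of dusp1 was not tested.

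The dusp1 transcript was least abundant in the young Select fry. In Commercial fry at 20 dph the 5 libraries held 14.6, 22.9, 17.2, 22.1 and 49.2 CPM of dusp1. In Select fry of that age they held 6.45, 8.65, 5.77, 7.07 and 9.34 CPM. These 5 Select libraries were the 5 lowest of all 20, and the strains did not overlap. At 65 dph the Commercial libraries held 36.5, 15.8, 29.7, 11.6 and 22.6 CPM. The Select libraries of that age held 15.5, 14.2, 16, 21.9 and 14.8 CPM. At this age the Select values lay inside the Commercial range.

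**Figure D1:**
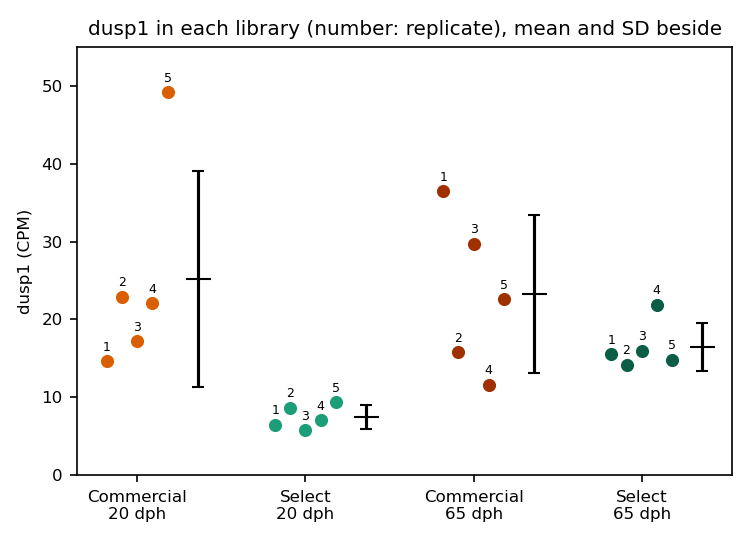
Level of dusp1 in CPM in each of the 20 libraries, 1 point a library with its replicate number; the horizontal bar and whiskers are the mean and SD of the 5 libraries. The 5 Select libraries at 20 dph, between 5.77 and 9.34 CPM, lie below all others, and Commercial replicate 5 at 20 dph, at 49.2 CPM, is the highest.

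The mean level was 25.2 ± 13.9 CPM in Commercial at 20 dph, 23.3 ± 10.1 in Commercial at 65 dph, 16.5 ± 3.13 in Select at 65 dph and 7.46 ± 1.5 in Select at 20 dph (SD, n = 5 each). In that order neighbouring groups overlapped except the last pair, since every Select library at 65 dph was above every Select library at 20 dph. The Commercial mean at 20 dph was 3.38 times the Select mean of the same age, and the fitted log2 fold change, Select minus Commercial, was -1.75 ± 0.33 (SE). In all, 1.13% of the features tested had Select libraries wholly below the Commercial ones at 20 dph and 1.06% had them wholly above, and the choice of the gene means that nothing is read from dusp1 being among them. Without replicate 5 the Commercial mean at 20 dph was 19.2 ± 3.97 CPM (n = 4), the ratio to Select was 2.58 and the fold change was -1.36 ± 0.27. Without the 3 libraries that stood apart it was -1.71 ± 0.37. The smallest count, that of Select 20 dph replicate 1, was 45 reads, with an exact Poisson 95% interval of 32.8 to 60.2 that covers counting error only. The largest, that of Commercial 20 dph replicate 5, was 411 reads, with an interval of 372 to 453. At 20 dph all 4 leukocyte markers tested had a fold change above 0 in Select, with a median of 0.89. Of these, cd8a (at most 0.627 CPM in any library of that age) and cd79b (at most 1.48 CPM) were near the floor. The T cell receptor subunit gene cd3e was higher in Select, at 7.28 ± 1.19 against 3.69 ± 0.634 CPM (0.98 ± 0.17, edgeR adjusted p = 0.0284). That call was lost in limma-voom (adjusted p = 0.126), and with 1 library left out (0.89 to 1.06) it was kept only without Commercial replicate 3 or Select replicates 1 or 3. Their part in the dusp1 values was not tested. In bulk tissue, fewer cells that carry dusp1 and less dusp1 RNA per cell cannot be told apart.

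The strain difference at 65 dph was not used to choose the gene and was tested. Select was below Commercial by a fitted log2 fold change of -0.50 ± 0.31 (SE), with a 95% interval from -1.16 to 0.16. The edgeR quasi-likelihood test gave an unadjusted p of 0.128 and a Benjamini-Hochberg adjusted p of 0.883, and 0% of all features passed at this age (2000 features had an unadjusted p under 0.05, DESeq2 called 121 and limma-voom 0). An exact two-sided permutation test of log2 CPM over all 252 assignments of 10 libraries to 2 strains gave p = 0.23, where the smallest p possible is 0.00794. The difference was thus within the spread between libraries, and the interval still holds both no difference and a Select level below that of Commercial by more than 1 on the log2 scale. The fitted value stayed below 0 when any 1 library was left out, from -0.67 to -0.28 with adjusted p from 0.413 to 1. It was -0.60 without the 3 libraries that stood apart (adjusted p = 0.571).

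The values by age are a description too, since they share the 20 dph libraries by which the gene was chosen. In Select the level at 65 dph was 2.21 times that at 20 dph, a log2 fold change of 1.14 ± 0.32, and the ages did not overlap. In Commercial the ages overlapped, and the log2 fold change was -0.11 ± 0.31. Leaving out Commercial 20 dph replicate 5 turned the Commercial value to 0.27 ± 0.27. The age effect in Select exceeded that in Commercial by 1.26 ± 0.45 on the log2 scale, and by 0.86 ± 0.37 without that library. Non-overlapping higher levels at the later age were found for 11.6% of all features in Select and 10.3% in Commercial. The 21 symbols looked for of leukocytes, cells in which DUSP1 is well known in mammals, matched 4 genes. These rose with age in both strains, by a median log2 fold change of 2.59 in Commercial and 1.86 in Select. Summed, they ran from 17.6 to 31 CPM in Commercial and 27.8 to 42.5 CPM in Select at 20 dph. At 65 dph they ran from 64.8 to 80.4 and 65.1 to 88.6 CPM. All 4 leukocyte markers were detected in every group, but at 20 dph cd8a (at most 0.627 CPM) and cd79b (at most 1.48 CPM) were near the floor. The medians therefore rest in part on low counts. The part of the leukocyte markers in the dusp1 values was not tested.

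The Commercial libraries were also the more variable ones for dusp1, at 20 dph because of replicate 5. The coefficient of variation was 54.9% and 43.5% in Commercial at 20 and 65 dph, and 20.1% and 19.0% in Select. The highest Commercial library was 3.37 times the lowest at 20 dph and 3.15 times at 65 dph, whereas the ratio in Select was 1.62 and 1.55. The SD of log2 CPM in Commercial was larger than that of 94.0% and 94.2% of features of like level (within 0.5 on the log2 CPM scale), and in Select larger than that of 37.7% and 49.5%. Without replicate 5 the Commercial libraries at 20 dph ran from 14.6 to 22.9 CPM (19.2 ± 3.97, n = 4). Relative to its mean, that spread was close to the one in Select at 20 dph (7.46 ± 1.5 CPM). No test of the variances was made.

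Among the MAP kinase phosphatases that were matched, dusp1 had the highest mean level per length in every group except Select at 20 dph. In TPM, which corrects for transcript length, its mean was 11.6 ± 6.11 in Commercial and 3.47 ± 0.766 in Select at 20 dph, and 14.3 ± 6.26 and 10.4 ± 2.01 at 65 dph (SD, n = 5). On this scale the Commercial mean was the higher one at 65 dph, whereas in CPM it was the higher one at 20 dph. Its mean over all libraries, 9.95 TPM, was above that of 69.1% of the features tested. Of the 10 symbols of this enzyme group that were looked for, dusp1, dusp2 and dusp6 were matched. DUSP6, a cytoplasmic phosphatase that acts mainly on ERK, had 3.92 ± 1.54 TPM in Commercial and 3.48 ± 1.16 TPM in Select at 20 dph. In the young Select fry, then, the levels per length of dusp1 and dusp6 were close to each other, while in the other groups dusp1 had the higher mean. The nuclear phosphatase gene dusp2 was too low to test, with group means from 0.202 to 0.436 TPM.

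The strains overlapped in dusp6. At 20 dph its libraries held 6.89, 8.69, 7.09, 7.64 and 16.2 CPM in Commercial and 6.30, 8.27, 9.70, 10.7 and 5.65 CPM in Select. The fitted log2 fold change was -0.19 ± 0.23 (edgeR adjusted p = 0.881). Without Commercial replicate 5 it was 0.10, so its sign rested on that library. At 65 dph the strain value was -0.18 ± 0.23 (adjusted p = 0.969), and the change with age was 0.18 ± 0.23 in Commercial and 0.18 ± 0.23 in Select (adjusted p = 0.618 and 0.584). Commercial 20 dph replicate 5 had the most dusp1 and the most dusp6 of all 20 libraries in CPM. In TPM it did not, at 22.2 against 22.7 TPM of dusp1 in Commercial 65 dph replicate 1, and at 6.61 against 7.29 TPM of dusp6 in Commercial 65 dph replicate 3.

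Of 10 other dual-specificity phosphatases in the files, 7 were expressed enough to test, and none was called for strain at either age. At 20 dph 0.159% of all features were called, 0.106% as higher and 0.0529% as lower in Select, and of these 7 genes 0 had an unadjusted p under 0.05. DESeq2 and limma-voom called 0 as well, and the median log2 fold change was 0.04 against 0 for all features. At 65 dph 2 of the 7 had an unadjusted p under 0.05, the median was -0.27 against 0 for all features, and DESeq2 and limma-voom again called 0. All 7 had a fold change below 0 at that age, against 49.4% of all features, while at 20 dph 2 of the 7 did. The gene with the highest level per length, dusp23b, which encodes a small atypical phosphatase, lay lower in every Select library than in every Commercial library at 65 dph (10.2 to 13.7 against 13.7 to 23.9 CPM, where the values that meet differ only before rounding). Its log2 fold change of -0.65 ± 0.22 did not pass (adjusted p = 0.633), and 0.469% of all features were apart in that direction. With age, dusp22a (0.58 ± 0.20, adjusted p = 0.0313) and dusp22b (1.18 ± 0.41, adjusted p = 0.036), copies of a gene for a phosphatase that acts on JNK signalling, rose in Commercial, where 30.1% of all features changed. The call of dusp22a was lost without Commercial 20 dph replicates 1, 2 or 4 or Commercial 65 dph replicates 2 or 3 (0.49 to 0.68 over all fits with 1 library left out). That of dusp22b was lost without Commercial 20 dph replicates 2, 3, 4 or 5 or Commercial 65 dph replicates 1 or 5 (0.96 to 1.40). The gene dusp12 fell in Select (-0.86 ± 0.20, adjusted p = 0.00274), where 34.3% of all features changed.

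No gene of the MAP kinase cascade, which DUSP1 acts on, passed between strains. Of 42 cascade genes looked for, 10 were matched and 9 tested. None was called between strains at 20 dph (edgeR, with 0 at an unadjusted p under 0.05) or at 65 dph (also 0), and DESeq2 and limma-voom called 0 at both. The median log2 fold changes were 0.01 and 0.04. With age, mapk13, which encodes a p38 kinase, rose by 0.36 ± 0.13 (adjusted p = 0.0388) and araf, a RAF kinase that feeds the ERK branch, by 0.29 ± 0.10 (adjusted p = 0.0399) in Commercial. In Select map3k1, a kinase that feeds the JNK branch, rose by 0.53 ± 0.17 (adjusted p = 0.0191) and araf by 0.27 ± 0.10 (adjusted p = 0.0498). These were 2 of the 9 in each strain, where 30.1% of all features were called in Commercial and 34.3% in Select. The share called was thus no larger than that of all features. With 1 Commercial library left out, mapk13 (0.27 to 0.44) was called only without 20 dph replicate 2 or 65 dph replicates 3 or 5, and araf (0.23 to 0.33) only without 20 dph replicates 3 or 5 or 65 dph replicate 5. With 1 Select library left out, araf (0.19 to 0.32) was called only without 20 dph replicate 1, and map3k1 (0.42 to 0.61) lost its call without 65 dph replicates 3 or 4.

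The immediate early genes lay mostly on the same side as dusp1 at 20 dph, but none passed the edgeR test. In mammals some of them are switched on with DUSP1 by the same kinases. Of 68 symbols looked for, 31 were matched and 27 tested. At 20 dph 23 of the 27, or 85.2%, had a fold change below 0 against 50.7% of all features, and their median was -0.39 against 0. At an unadjusted p under 0.05 there were 8 of the 27, against 3316 of the 32166 features, DESeq2 called 1 (socs3, adjusted p = 0.00112) and limma-voom 0. The count below 0 was 22 without Commercial 20 dph replicate 5, with a median of -0.41, and 21 without the 3 libraries that stood apart, with a median of -0.27. Genes of this list share regulators and are not independent of each other.

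In 3 of these 27 genes every Select library at 20 dph was below every Commercial one, as it was in 1.13% of all features. The first was socs3, an inhibitor of cytokine signalling through JAK and STAT, with 6.36, 23.3, 11.2, 8.11 and 12.6 CPM in Commercial and 4.01, 2.76, 4.68, 5.61 and 2.83 CPM in Select. Its gap was narrow, between 5.61 and 6.36 CPM, and its log2 fold change was -1.62 ± 0.34 (edgeR adjusted p = 0.062). The second was ier2b, an immediate early nuclear protein gene, with 32.0, 48.4, 44.9, 37.5 and 30.9 CPM in Commercial against 20.3, 28.6, 26.0, 25.6 and 29.0 CPM in Select. It differed by -0.58 ± 0.16 on the log2 scale (adjusted p = 0.164). The third was klf6a, a zinc finger transcription factor gene, with 20.6 to 33.5 CPM in Commercial and 15.1 to 20.1 CPM in Select. It differed by a log2 fold change of -0.63 ± 0.20 (adjusted p = 0.245). The gaps of ier2b, between 29.0 and 30.9 CPM, and of klf6a, between 20.1 and 20.6 CPM, were narrow too. The AP-1 subunit gene jun had 38.4, 29.3, 45.8, 38.0 and 20.0 CPM in Commercial and 15.5, 18.9, 22.9, 14.9 and 21.6 CPM in Select. Its only overlap came from Commercial replicate 5, the library with the most dusp1, and the fitted strain difference was -0.87 ± 0.25 (adjusted p = 0.186). The stress-induced factor gene atf3 stood at -0.69 ± 0.23 (adjusted p = 0.26).

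At 65 dph the immediate early genes were spread around 0 between the strains. None was called (edgeR, with 3 at an unadjusted p under 0.05, and 0 by DESeq2 and limma-voom), 15 of 27 were below 0, and the median was -0.17. The groups were apart for klf2a, a shear-stress and quiescence factor of endothelium and lymphocytes in mammals (-0.55 ± 0.23, adjusted p = 0.759), and for the growth arrest gene gadd45ga (-0.99 ± 0.35, adjusted p = 0.669). Both were lower in Select, and 0.469% of all features were apart in that direction. Their gaps were narrow, between 70.5 and 70.6 CPM for klf2a and between 1.21 and 1.25 CPM for gadd45ga.

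With age, more immediate early genes rose in Select than in Commercial, but the difference between the age effects was called for none (0 of 27 by edgeR, with 5 at an unadjusted p under 0.05, and 0 by DESeq2 and limma-voom). In Commercial 4 of the 27 rose and 2 fell, against 14.5% and 15.6% of all features. The share called there was thus not above that of all features. The AP-1 subunit gene fosl2 went from 48.9 ± 15.7 to 108 ± 13.4 CPM (log2 fold change 1.15 ± 0.24, adjusted p = 0.00139), and klf2a from 42.7 ± 13.9 to 87.2 ± 12.3 CPM (1.03 ± 0.23, adjusted p = 0.0027). Smaller rises were those of ier2b (0.60 ± 0.16) and maff, a small MAF factor gene (0.53 ± 0.13). The matricellular growth factor gene ccn2a fell from 30.3 ± 8.04 to 10.8 ± 1.40 CPM (-1.48 ± 0.26, adjusted p = 0.000249), and the kinase gene pim1 fell by 0.39, a call lost without Commercial 65 dph replicate 5 (-0.45 to -0.32 over all such fits).

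In Select 10 of the 27 rose and 4 fell, against 16.4% and 17.9% of all features, so the share that fell was near that of all features. The EGR factor gene egr3, at only 0.797 ± 0.475 CPM at 20 dph, rose to 2.31 ± 0.826 CPM (1.51 ± 0.47, adjusted p = 0.0194). The AP-1 gene fosl2 rose by 1.18 ± 0.24 (adjusted p = 0.001), and maff by 1.04 ± 0.13 (adjusted p = 9.78e-06). The genes atf3 (0.92 ± 0.23), ier2b (0.92 ± 0.16) and irf1b, an interferon regulatory factor gene (1.15 ± 0.41), rose as well. The call of egr3 was lost without Select 20 dph replicates 2 or 4 (1.32 to 1.88 over all such fits). That of irf1b was lost without Select 20 dph replicates 1, 3, 4 or 5, and without Select 65 dph replicate 3 its value was 0.50 (adjusted p = 0.25). Larger falls were those of gadd45ga (-2.10 ± 0.35, adjusted p = 0.000178) and ccn2a (-1.09 ± 0.25). In Select gadd45ga was at most 1.21 CPM at 65 dph, and its highest 20 dph value, 7.74 CPM, was in replicate 1. With 1 library left out the value of gadd45ga ran from -2.29 to -1.74. The median of the list was 0.37 in Select and -0.06 in Commercial, against 0.07 and 0.05 for all features. Without the 3 libraries that stood apart, 8 rose and 4 fell in Select, and 4 rose and 3 fell in Commercial.

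**Figure D2:**
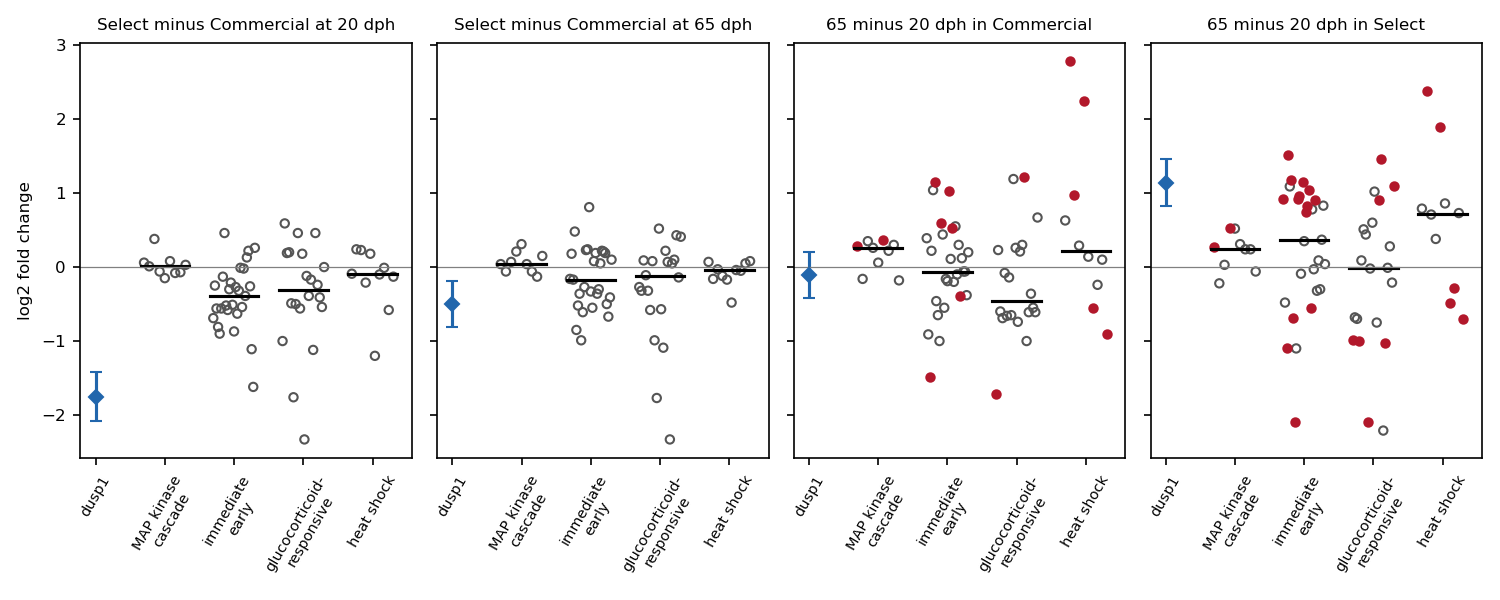
Log2 fold changes of dusp1 (diamond with SE) and of the tested genes of 4 lists (circles, filled where the edgeR adjusted p is under 0.05; bar, list median) in the 4 contrasts named above the panels. Between strains no circle is filled; at 20 dph most immediate early genes lie below 0 (median -0.39), and dusp1 lies lower at -1.75.

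The glucocorticoid-responsive genes showed another pattern, one that rested on the library with the most dusp1. Of 33 symbols looked for, 23 were matched and 20 tested, 3 of them also on the immediate early list. At 20 dph none was called by edgeR between strains (3 at an unadjusted p under 0.05), DESeq2 called klf9 (adjusted p = 0.0374) and angptl4 (adjusted p = 0.00145), and limma-voom called 0. The median log2 fold change was -0.32 with 14 of 20 below 0. Without Commercial 20 dph replicate 5 it was 0.12 with 9 of 21 below 0, so the direction of this list turned with that library, while that of dusp1 and of the immediate early list did not. At 65 dph none was called by any of the 3 tools (4 at an unadjusted p under 0.05 in edgeR), and the median was -0.13.

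In Commercial 20 dph replicate 5, 15 of the 20 glucocorticoid-responsive genes (75%) had the highest level of their group, against 26.3% of all features. The lowest level of the group was there for 3 of the 20 (15%), against 25.7% of all features. There 9 of the 20 (45%) had the highest level of all 20 libraries, against 5.95% of all features, and 10 (50%) were over 2-fold above the median of the other 4 libraries, against 5.18%. The co-chaperone gene fkbp5, which in mammals is among the most glucocorticoid-induced genes, stood at 217 CPM there and at 27.4 to 37.0 CPM in the other 4. The zinc finger gene klf9 stood at 29.3 against 3.71 to 5.68 CPM. The stress-induced sestrin gene sesn1 stood at 293 against 56.2 to 85.0 CPM. These are 6.57, 5.81 and 4.04 times the median of the other 4, where dusp1 was 2.5 times. The C/EBP factor gene cebpd stood at 89.8 against 21.9 to 36.7 CPM, and the forkhead factor gene foxo3b at 16.9 against 3.48 to 4.91 CPM. Of the immediate early genes 13 of 27 (48.1%) had in this library the lowest level of their group, against 25.7% of all features, among them jun, fosl2, atf3, ier2b and klf6a, and only 6 the highest.

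The same library had the highest sum of epithelial markers of all 20, 19700 CPM. Of the 11 epithelial markers 6 had there the highest level of their group (54.5%) and 4 the highest of all 20 libraries (36.4%, against 5.95% of all features). It had 1070 CPM of liver markers, the most of its group, with 7 of 10 tested liver markers at their group's highest level, and 77.7 CPM of blood and endothelium markers, with 5 of 5 at the highest. The part of these cells in its dusp1 level was not tested. In Commercial 65 dph replicate 5 fkbp5 stood at 129 CPM, against 12.9 to 36.2 CPM in the rest of its group, and dusp1 at 22.6 CPM, the third of 5 values.

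Of the 20 glucocorticoid-responsive genes, klf9 and angptl4 lay lower in every Select library than in every Commercial one at 20 dph, as did 1.13% of all features. The level of klf9 was 4.92, 5.68, 3.71, 5.17 and 29.3 CPM in Commercial and 0.86, 2.51, 3.38, 0.975 and 1.84 CPM in Select (log2 fold change -2.33 ± 0.69, edgeR adjusted p = 0.198, and -1.33 at the least with 1 library left out). The lipoprotein lipase inhibitor gene angptl4 was at 45.4 ± 6.51 CPM in Commercial and 22.7 ± 5.29 CPM in Select (-1 ± 0.21, adjusted p = 0.067). With age angptl4 fell in both strains, by -1.71 ± 0.22 in Commercial (adjusted p = 1.4e-05) and -0.98 ± 0.22 in Select (adjusted p = 0.00179). The glucocorticoid receptor gene nr3c1 rose in both, from 3.20 ± 1.31 to 7.50 ± 1.18 CPM in Commercial (1.22 ± 0.29, adjusted p = 0.0036) and from 2.87 ± 0.593 to 7.91 ± 3.06 CPM in Select (1.46 ± 0.29, adjusted p = 0.000852). These were the only 2 of 20 called with age in Commercial, where 30.1% of all features were called, and the count became 4 without Commercial 20 dph replicate 5 and 6 without the 3 libraries that stood apart. In Select 3 rose and 4 fell of 20, where 16.4% of all features rose and 17.9% fell, so the share called was near that of all features. Among them were the cytokine signalling inhibitor gene socs1 (1.09 ± 0.40), the pyruvate dehydrogenase kinase gene pdk2a (-1.02 ± 0.30) and the factor gene cebpb (-1 ± 0.32). The call of cebpb was lost without Select 20 dph replicate 1 or Select 65 dph replicates 1 or 4 (-1.18 to -0.44 over all such fits). That of socs1 was lost without Select 20 dph replicates 1, 4 or 5 or Select 65 dph replicates 3, 4 or 5 (0.78 to 1.35).

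The genes whose levels ran most closely with dusp1 were sought among 4668 genes with a symbol and a mean log2 CPM of at least 1. The measure was Pearson's r of log2 CPM over the 20 libraries, which share their group differences and their scaling, and it is given as a description. The closest was nr1d2a, a copy of the gene for the nuclear receptor REV-ERB beta, a heme-binding repressor of the circadian clock, at r = 0.92 (Spearman 0.88). The time of day at which the fry were sampled is not given in the labels. Its levels were 29.9, 30, 36.2, 24.6 and 47.2 CPM in Commercial and 14.6, 18.8, 17.4, 14.1 and 23.1 CPM in Select at 20 dph. At 65 dph they were 36.2, 26.9, 37.5, 21.4 and 29.2 CPM in Commercial and 25.4, 23.3, 27.0, 29.3 and 28 CPM in Select. Like that of dusp1, its mean was lowest in the young Select fry and its level was highest in Commercial 20 dph replicate 5, and it also had Commercial 65 dph replicate 4 as the lowest of its group. Both genes also shared the highest Select library at 20 dph and the highest and lowest at 65 dph. Other extremes differed. At 20 dph the lowest Commercial library was replicate 1 for dusp1 and 4 for nr1d2a, and the lowest Select library was replicate 3 and 4. At 65 dph the highest Commercial library was replicate 1 for dusp1 and 3 for nr1d2a. Without the 2 libraries whose dusp1 was farthest from the median (Commercial 20 dph replicate 5 and Select 20 dph replicate 3), r was 0.88.

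The next in likeness were tamalin, which encodes a scaffold protein of membrane receptors (r = 0.80), and klf9 (0.79). They were followed by zgc:162730, which has only a clone name (0.77), cdkn1ba, a cyclin-dependent kinase inhibitor gene (0.77), lrig2, a membrane protein gene of the leucine-rich repeat class (0.76), and socs3 (0.74). The list ended with the interleukin-13 receptor subunit gene il13ra1 (0.72), the kinase gene snrkb (0.72) and nr1d4b, another member of the REV-ERB family (0.71). Of these 10, 4 remained among the 10 closest without the 2 farthest libraries, 7 with Spearman's rho and 8 on log2 TPM. Over all features tested a gene without a name in the table, LOC110501605, stood just above nr1d2a at 0.93.

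**Figure D3:**
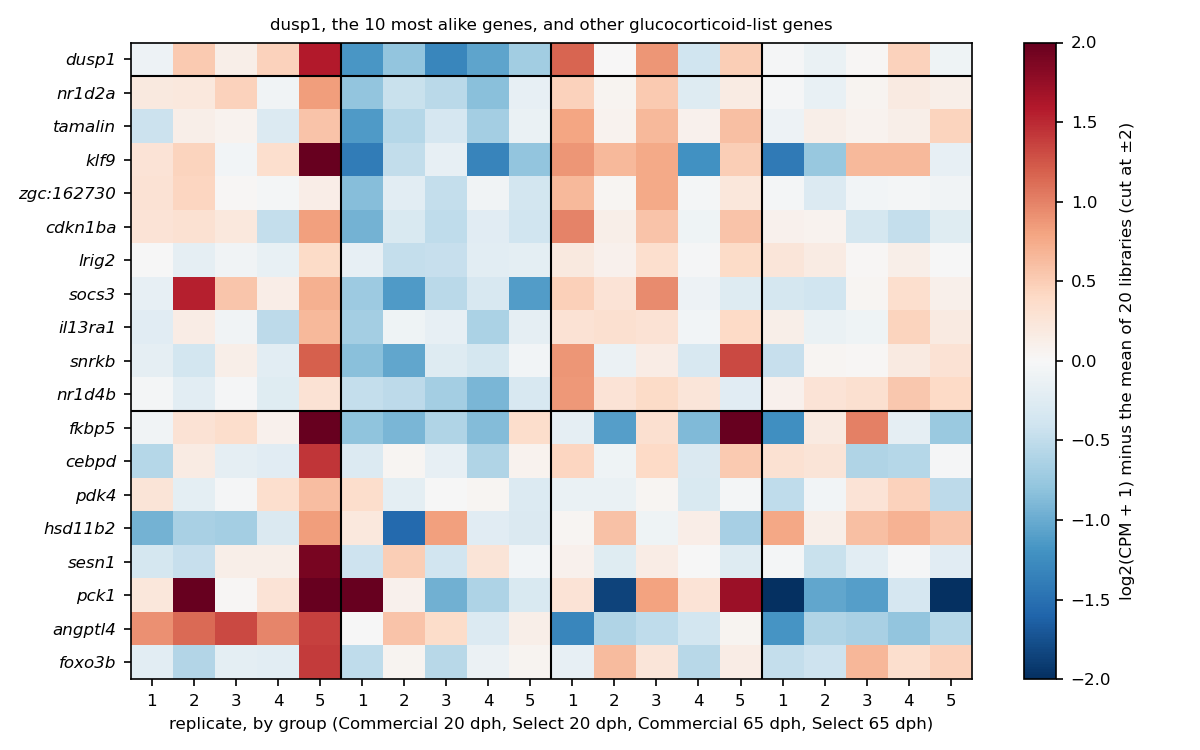
Level of dusp1, of the 10 genes most alike to it and of the other glucocorticoid-list genes that were highest in Commercial 20 dph replicate 5 (chosen for that value), in log2(CPM + 1) minus the gene's mean over the 20 libraries, shown from -2 to 2. In dusp1 and nr1d2a the 5 Select libraries at 20 dph are below the mean, and the fifth Commercial column at 20 dph is the highest. In the lower block cebpd, sesn1 and foxo3b are high mainly in that column, and fkbp5 also in the fifth Commercial column at 65 dph. The genes hsd11b2, angptl4, pck1 and pdk4 are high in other columns as well.

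When the mean of each of the 4 groups was taken off, so that only the differences between libraries of 1 group counted, the closest were si:dkey-90l8.3, a gene with a clone name only (r = 0.83), nr1d2a (0.76) and def8 (0.76). Then came xirp2b, which encodes an actin-binding protein of striated muscle (0.72), insig1, a sterol sensor partner of the SREBP pathway (0.72), ocel1 (0.70), klf9 (0.69), tamalin (0.68), fgd4a (0.68) and cebpd (0.68). Thus nr1d2a, klf9 and tamalin, 3 of the 10 genes above, were also among the 10 closest within groups. Of these 10, 5 remained without the 2 farthest libraries, Commercial 20 dph replicate 5 and Commercial 65 dph replicate 4. These 5 were si:dkey-90l8.3, ocel1, insig1, xirp2b and def8. Without those 2 libraries r was 0.60 for nr1d2a, 0.55 for tamalin and 0.43 for klf9, which were then not among the 10 closest. Within groups the glucocorticoid-responsive list had a median r of 0.24 with dusp1, and 5 of its 20 genes were above 0.5 (25%, against 2.08% of all features). Without the 2 farthest libraries 2 of the 20 were above 0.5 (10%, against 1.46%). The immediate early list had a median of -0.07 with 0 of 27 above 0.5, and all features had a median of -0.02. Without the 2 farthest libraries the immediate early list had a median of 0.04 with 1 of 27 above 0.5 (3.7%, against 1.46%).

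**Figure D4:**
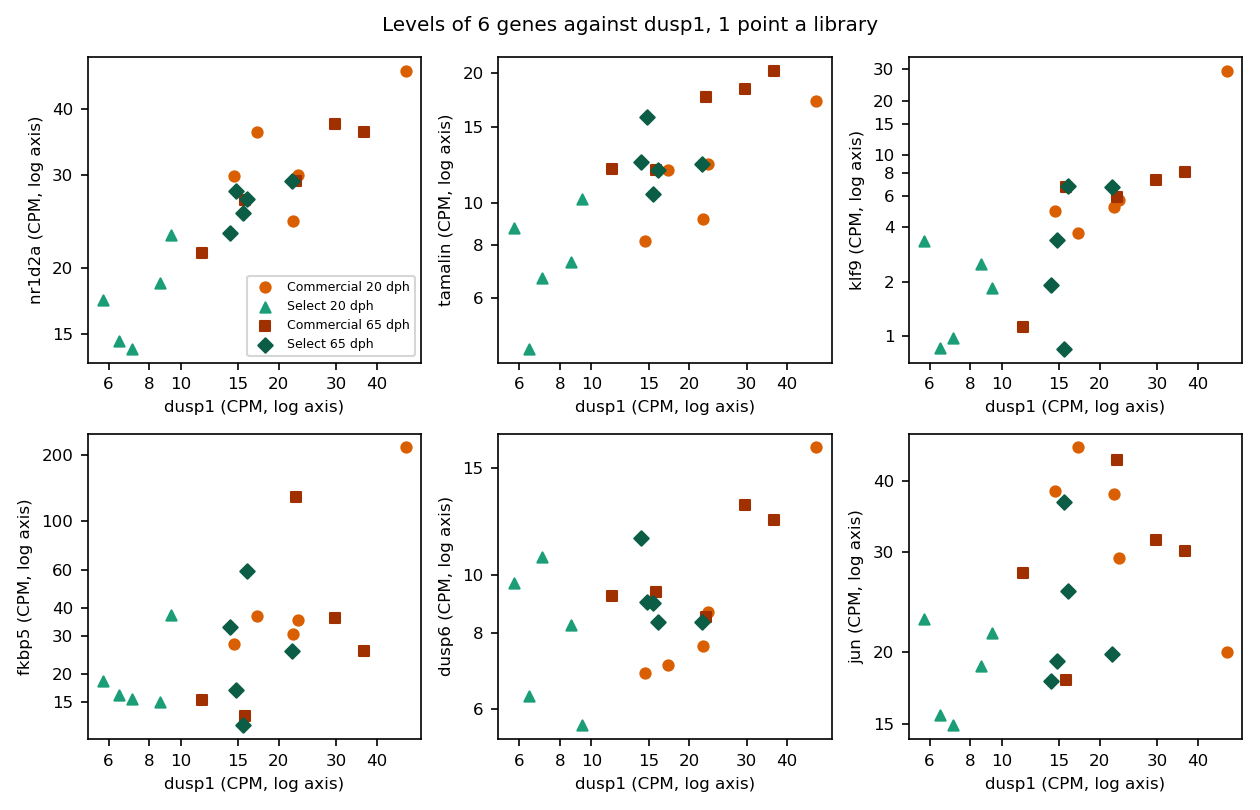
Levels of 6 genes against dusp1, both in CPM on log axes, 1 point a library, with the 4 groups by colour and shape. The points of nr1d2a rise with dusp1 (r = 0.92 over 20 libraries) but scatter among the middle values. In Commercial at 20 dph, for example, nr1d2a was 36.2 CPM at 17.2 CPM of dusp1 and 24.6 CPM at 22.1 CPM. The points of fkbp5 and dusp6 are highest in the Commercial 20 dph library at 49.2 CPM of dusp1, and jun is low in that library at 20.0 CPM.

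No heat shock or handling stress gene passed between the strains. Of 24 symbols looked for, 11 were matched and 10 tested. None was called at 20 dph (edgeR, with 1 at an unadjusted p under 0.05) or at 65 dph (with 0), DESeq2 and limma-voom called 0 at both, and the medians were -0.10 and -0.04. With age the heme-degrading enzyme gene hmox1a rose from 3.35 ± 1.24 to 23.0 ± 8.47 CPM in Commercial (2.78 ± 0.45, adjusted p = 0.000152) and from 3.92 ± 2.14 to 20.7 ± 12.4 CPM in Select (2.38 ± 0.44, adjusted p = 0.000478). The inducible chaperone gene hsp70a rose by 2.25 ± 0.43 (adjusted p = 0.000689) and 1.90 ± 0.43 (adjusted p = 0.00221). The cytosolic chaperone gene hsp90ab1 fell by 0.56 in Commercial and 0.49 in Select, and the collagen chaperone gene serpinh1a fell by 0.91 and 0.70. In Select the last call was lost without 20 dph replicates 1, 2 or 4 or 65 dph replicates 3 or 4 (-0.85 to -0.52). In Commercial 3 of the 10 rose and 2 fell, where 30.1% of all features were called, and in Select 2 rose and 3 fell, where 34.3% were called.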

How the data were processed

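Per the file headers, the authors' deposited table of each library gives, for 78931 transcripts, an expected count (estimated, not normalised, 34.3% of them not whole), a TPM and an effective length. Salmon 1.2.1 was used, per the submitters' processing notes. It divides reads among similar transcripts, so levels of near-identical trout gene copies are uncertain. The transcript release and genome build were not given in the sources used.

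Transcripts were paired with genes without their version through a RefSeq table of the assembly USDA_OmykA_1.1, used for names only (42376 matched, with 66.5% of the reads). The unmatched were kept as single features, 61670 features in all. Sums lack any transcript that found no match, and a symbol stands for 1 trout copy. Sums were rounded and tested with edgeR 4.0.16 (R 4.3.3), by TMM, filterByExpr and robust quasi-likelihood fitting over the 20 libraries with a mean for each of 4 groups, with Benjamini-Hochberg adjustment over 32166 features. A feature was called at an adjusted p under 0.05. SEs are approximate, from the fold change and the F statistic. Counting intervals cover counting error only, since reads carried no molecular identifiers. Deposited TPM values were used to compare genes and, with the deposited effective lengths, in 1 alternative. DESeq2 1.42.0, limma-voom (limma 3.58.1), other filters and scalings, version-matched accessions, left-out libraries and a replicate block were alternatives. The code was tested on simulated data. Log2 CPM used a prior count of 2. Leaving out the 2 farthest libraries from the likeness measures was added after seeing the data.

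Genes named are the MAP kinase phosphatases, up to 6 called members per list and contrast, members whose groups were apart at 20 dph, and the 10 genes most alike to dusp1 by each measure. Others, such as jun, atf3, sesn1, foxo3b, dusp23b and the genes apart at 65 dph, were chosen after their values were seen. Gene copies by protein identity were not analysed here. The gene and the lists were chosen with earlier results of these data known.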

Additional observations from a re-analysis of the deposited data

Results flagged for a closer look

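In 208 groups of 5 libraries (52 named genes in 4 groups), Dixon's test was applied to the library farthest from the rest, and 34 passed its critical value of 0.71. Chance flags about 1 group in 20. Several of the genes were named for their level in Commercial 20 dph replicate 5 or for their likeness to dusp1, so the counts describe the genes named and nothing more is read from them. In that library, with 12 of the 34 values, dusp1 was at 49.2 CPM (14.6 to 22.9 in the other 4), dusp6 at 16.2 (6.89 to 8.69), fkbp5 at 217 (27.4 to 37.0) and klf9 at 29.3 (3.71 to 5.68). There cebpd was at 89.8 CPM (21.9 to 36.7), sesn1 at 293 (56.2 to 85.0), foxo3b at 16.9 (3.48 to 4.91) and def8 at 8.5 (5.24 to 5.68). The genes insig1 at 193 CPM (80.8 to 109), lrig2 at 19.8 (13 to 14.8), si:dkey-90l8.3 at 10.5 (3.31 to 4.98) and snrkb at 11.9 (3.36 to 5.13) were apart there as well.

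The other values in Commercial were cebpb at 23.8 CPM (13.2 to 15.9) in replicate 2 and hsp70a at 5.02 (1.32 to 2.33) in replicate 3 at 20 dph. At 65 dph they were hsp70a at 26.4 CPM (7.48 to 8.52) and si:dkey-90l8.3 at 4.27 (2.49 to 2.95) in replicate 1, egr3 at 2.97 (1.25 to 1.37) in replicate 2 and fkbp5 at 129 (12.9 to 36.2) in replicate 5.

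In Select 20 dph replicate 1, the library with liver and muscle markers, dusp22a was at 6.16 CPM (12.2 to 12.9), dusp23b at 7.74 (17.2 to 19.5), map3k1 at 33.4 (24.2 to 26.4), cebpb at 43.1 (9.02 to 15.9) and vil1 at 1870 (2940 to 3210). At the same age hsp90ab1 was at 2660 CPM (2220 to 2290) in Select replicate 2, and mapk13 at 15.2 (11.6 to 12.4) and fkbp5 at 37.2 (14.9 to 18.6) in replicate 5. At 65 dph a second value of dusp1 stood apart, 21.9 CPM in Select replicate 4 (14.2 to 16), with si:dkey-90l8.3 at 4.29 (2.83 to 3.04) there. The others in Select at that age were vil1 at 2870 CPM (1990 to 2240) in replicate 1, irf1b at 62 (10.9 to 22.1) in replicate 3 and pdk2a at 3.04 (1.2 to 1.7) in replicate 5. In replicate 2, dusp6 was at 11.5 CPM (8.35 to 9.02), klf6a at 16.5 (33.3 to 37.7) and zgc:162730 at 164 (188 to 193).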

How the results depend on the processing

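The strain values of dusp1 kept their sign under all alternatives run. With 1 library left out, the value ran from -1.90 to -1.36 at 20 dph, from -0.67 to -0.28 at 65 dph, from -0.34 to 0.27 for age in Commercial, from 1.02 to 1.23 for age in Select and from 0.86 to 1.48 for the difference of the age effects. Over the 10 other settings these ranges were -1.77 to -1.62, -0.60 to -0.41, -0.13 to 0.01, 1.13 to 1.17 and 1.11 to 1.27. All 10 scaled the libraries by TMM or DESeq2's size factors, so these ranges do not cover deposited TPM left as it is. In TPM the means of dusp1 at 20 and 65 dph were 11.6 and 14.3 in Commercial and 3.47 and 10.4 in Select. The log2 fold change of dusp6 at 20 dph ran from -0.31 to 0.10 with 1 library left out, and turned to 0.10 without Commercial 20 dph replicate 5. Of the immediate early genes, DESeq2 called 1 at 20 dph, and 5 to 7 were called for age in Commercial and 11 to 14 in Select with 1 library left out. With accessions matched by version 0 and 0 were called for age, since only 5 of the list were then tested, and no MAP kinase phosphatase but dusp1 could be tested. Library numbers did not pair the libraries: over 30 same-numbered pairs the correlation of deviations ran from -0.09 to 0.106, and 4 of 20 libraries correlated best with their own number. With the replicate block dusp1 at 65 dph was -0.48, and angptl4 at 20 dph passed (adjusted p = 0.0488). Of the age calls named, limma-voom did not make those of dusp22b, mapk13, egr3, irf1b and cebpb. Without a filter those of dusp22a, dusp22b, mapk13, irf1b, socs1 and araf in both strains were lost. With the block those of mapk13, irf1b and araf in both strains were lost, as with only the groups compared, where pim1, cebpb and serpinh1a in Select were lost too. Without the 3 libraries that stood apart those of mapk13, egr3, socs1 and cebpb were lost. With version matching irf1b and socs1 were lost. The call of cd3e between strains at 20 dph was lost with limma-voom, with only the groups compared, on length-scaled TPM and with version matching. The call of araf in Select was also lost with DESeq2's size factors and with the stricter filter.

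The count over all features at 20 dph was 51, against 437 with DESeq2, 29 with limma-voom, 31 without a filter, 20 with the replicate block, 2 with version matching and 5 to 46 with 1 library left out. At 65 dph it was 0, against 121 with DESeq2, 1 with only the groups compared, 71 without the 3 libraries that stood apart and 0 to 125 with 1 library left out. The cause was not tested. Counting error limits dusp1 little, while the low counts of egr3, gadd45ga, cd8a, cd79b and dusp2 limit what can be compared.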
